A study of Homo sapiens with 16 samples.

Results

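Aldehyde dehydrogenases were followed in A549, an epithelial cell line established from a human lung adenocarcinoma, during an epithelial to mesenchymal transition, in which cells lose adhesion and polarity and take on mesenchymal traits. The members were 10 genes taken by symbol from the deposited expression tables: ALDH1A1, ALDH1A3, ALDH1B1, ALDH2, ALDH3A1, ALDH3A2, ALDH3B1, ALDH4A1, ALDH7A1 and ALDH9A1. All 10 were found among 57773 genes, and all 10 passed the filter of at least 1 TPM in at least 2 libraries that left 16967 genes. RNA was sequenced at 6, 12, 24, 36, 48, 72 and 96 h with TGF-beta, the growth factor that induced the transition, and at 0 h. Each time had 2 libraries, numbered replicate 1 and replicate 2, which gave 16 libraries of the same line. All groups were A549 cells, and the later groups differed from 0 h both in TGF-beta and in time. The dose of TGF-beta is not given in the sources used here. There was no untreated culture at the later times, so TGF-beta and time in culture cannot be told apart.

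Aldehyde dehydrogenases oxidise aldehydes to carboxylic acids with NAD or NADP, and so clear reactive products of lipid peroxidation, alcohol and drug metabolism. Members of the ALDH1A branch convert retinaldehyde to retinoic acid, members of the ALDH3 branch act on fatty and aromatic aldehydes, and the others serve acetaldehyde, amino acid and carnitine metabolism. ALDH1A1 and ALDH3A1 are known as abundant enzymes of lung adenocarcinoma cells, and activity of the family is widely used to sort tumour cells with stem cell features.

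Upstream sequences were shown for 3 members that the results set apart: ALDH1A1, the most abundant member, and the ALDH3 genes ALDH3A2 and ALDH3B1. RefSeq promoter sequences (GRCh38.p14) matched 8 of the 10 members, and ALDH3A1 and ALDH2 are named without one. Each run gives the 250 bases before a RefSeq transcript start, 5′ to 3′ on the gene's strand, and capitals mark a CCAAT box. ALDH1A1 lies at chr9:72953054-72953303 on the minus strand, ALDH3A2 at chr17:19647886-19648135 on the plus strand and ALDH3B1 at chr11:68008297-68008546 on the plus strand; ALDH3A2 and ALDH3B1 each have a further RefSeq start that is not shown.
ALDH1A1: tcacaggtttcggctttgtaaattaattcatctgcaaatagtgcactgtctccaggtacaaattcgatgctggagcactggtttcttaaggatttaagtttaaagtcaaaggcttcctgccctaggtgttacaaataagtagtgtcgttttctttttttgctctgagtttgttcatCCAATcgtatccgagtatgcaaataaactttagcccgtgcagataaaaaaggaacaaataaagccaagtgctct
ALDH3A2: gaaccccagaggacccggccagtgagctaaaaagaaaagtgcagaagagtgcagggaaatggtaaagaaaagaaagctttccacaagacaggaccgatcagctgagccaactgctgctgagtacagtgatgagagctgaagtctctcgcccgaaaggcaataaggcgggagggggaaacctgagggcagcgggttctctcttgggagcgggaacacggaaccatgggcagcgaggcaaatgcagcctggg
ALDH3B1: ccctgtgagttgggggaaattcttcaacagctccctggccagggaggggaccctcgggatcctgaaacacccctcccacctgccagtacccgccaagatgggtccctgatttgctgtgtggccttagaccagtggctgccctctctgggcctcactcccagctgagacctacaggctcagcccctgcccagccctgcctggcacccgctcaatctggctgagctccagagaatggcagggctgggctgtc
The ALDH1A1 window had a GC content of 38.4%, below the median of 58.0% over all promoters of that length, and its CCAAT lay 74 to 70 bases before the start. The ALDH3A2 window held 55.6% GC and the ALDH3B1 window 63.6% GC, and neither of these windows contained CCAAT on either strand. The window of the further ALDH3A2 start, chr17:19648501-19648750, had 73.2% GC and a CCAAT that lay 30 to 26 bases before that start. The letters TGACNNNGC, a core that NRF2 and MAF proteins are known to bind, were searched on both strands and were in none of the windows of the 8 matched members. Those letters were in 10.9%, CCAAT in 32.0% and TATAAA in 10.7% of 35116 RefSeq promoter windows. These matches are descriptions of the letters and not binding sites.

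The 16 libraries were of unknown depth, since TPM keep no read totals. Between 29278 and 31187 genes were listed at 0 in most libraries, but 36116 in 36 h replicate 2 and 36294 in 48 h replicate 2. Transcripts of 6 small RNA genes, RN7SK and RMRP among them, took 42.5% to 64.1% of the TPM, with the highest share in 48 h replicate 1, and so set the scale for all other genes. Over all genes the median log2 fold change from the 0 h level was -0.37, 0.03, -0.15, -0.16, -0.46, -0.16 and -0.20 at 6, 12, 24, 36, 48, 72 and 96 h, and lay between -0.04 and 0.03 with TMM scaling, which sets most genes level between libraries. Fold changes of members are to be read against these shifts. Epithelial keratins KRT8 and KRT18 were abundant in every library. Of 8 markers of alveolar type 2 cells only ABCA3 averaged at least 1 TPM. Markers of other cell types were low: the summed TPM of 3 endothelial genes was 0 to 0.20, of 3 erythroid genes 0 to 0.39, of 6 fibroblast genes 1.06 to 5.31 and of 5 leukocyte genes 4.10 to 9.26. Fewer cells of a type and less RNA per cell cannot be told apart in such bulk samples.

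Over the time course ALDH3A1 fell, the single member called for the course as a whole in the main fit, which had no replicate term. With the replicate number as a block, ALDH3A2 (limma adjusted p = 0.0177) and ALDH3B1 (0.00499) were called over the course too (6.13% of all genes). TMM scaling and the block together also called ALDH1A3 (limma adjusted p = 0.00737) and ALDH9A1 (0.0499) over the course (11.5% of all genes). In the main fit ALDH3A2 was called lower at 4 single times and ALDH3B1 at 1. ALDH1A1 stayed the most abundant member in all 16 libraries and was not called there at any time. Fold changes are differences in mean log2(TPM + 1), a scale that understates the change of low genes. They were tested with limma over all 16 libraries, with Benjamini-Hochberg adjustment over 16967 genes, and calls were made at an adjusted p under 0.05. Whether the replicates came from separate cultures is not in the labels; the p-values measure the spread between these libraries only, and that spread may be technical. All comparisons with 0 h share the same 2 libraries, and 2 against 2 libraries cannot reach below p = 0.333 in an exact permutation test.

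**Figure D1:**
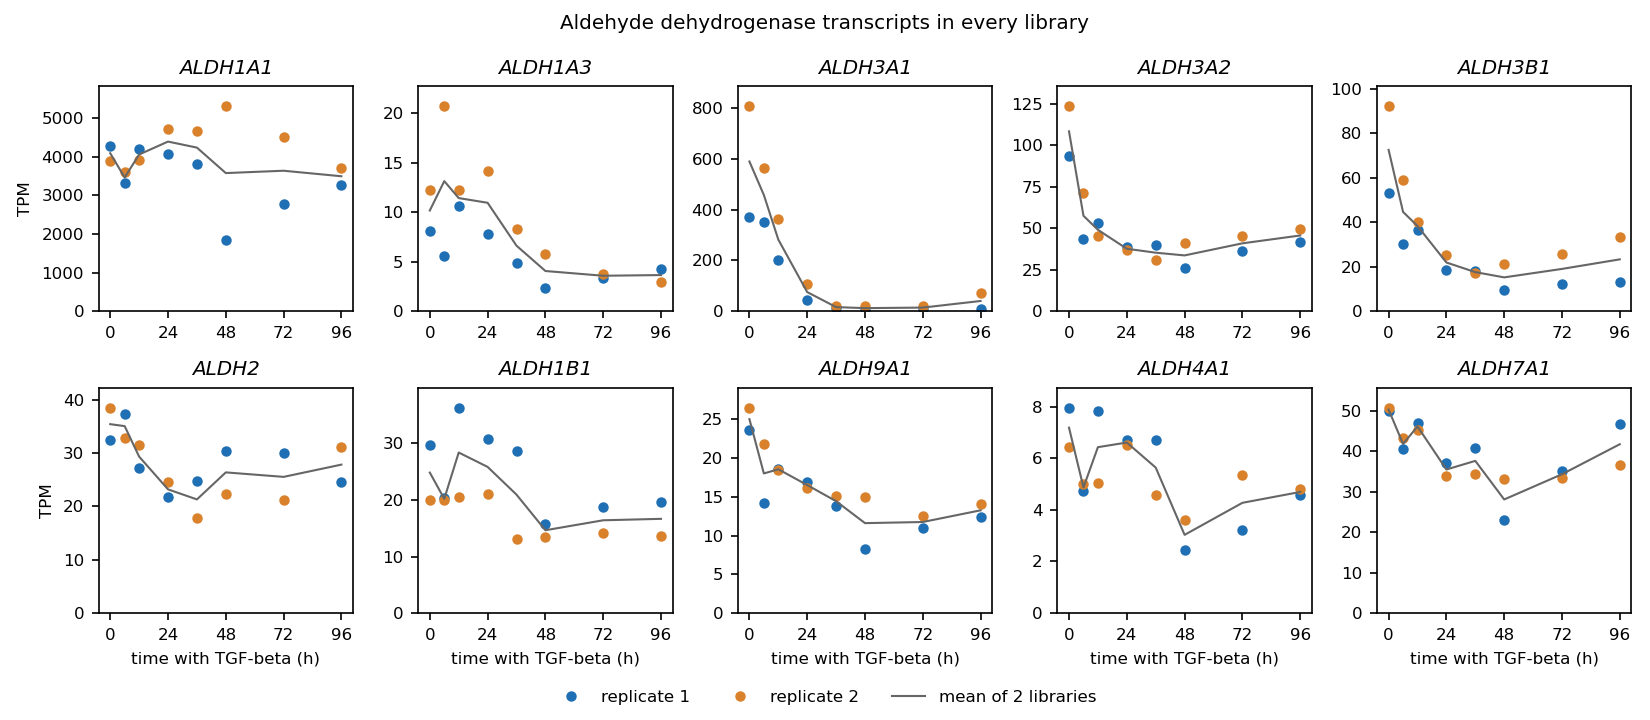
TPM of the 10 members (y axis, a separate scale for each gene, starting at 0) against hours with TGF-beta (x axis); points are single libraries of replicate 1 and replicate 2, and lines join the means of 2 libraries. ALDH3A1 dropped to means of 12.3 to 16.3 TPM at 36, 48 and 72 h, against 589.8 TPM at 0 h, whereas the means of ALDH1A1 stayed between 3462 and 4393 TPM.

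ALDH3A1 encodes a cytosolic enzyme for aromatic and medium-chain aldehydes, known from the cornea and from lung tumours. It lies on the minus strand of chromosome 17 (19737984 to 19748943, GRCh38, GENCODE v29), 1.25% of its 50-base words are shared with another annotated gene, and no promoter window is shown for it. In replicate 1 it measured 373, 352, 201, 42.9, 12.3, 5.66, 8.25 and 10.4 TPM at 0, 6, 12, 24, 36, 48, 72 and 96 h. The replicate 2 libraries of the same times measured 806.5, 563, 364, 108, 20.3, 18.9, 20.6 and 70.4 TPM. Both libraries of every time from 12 h on lay below both libraries of 0 h. At these times 16.1% (12 h) to 62.3% (48 h) of all genes did so. At 6 h the ranges of ALDH3A1 overlapped, and with TMM scaling they overlapped at 12 h too. Replicate 2 was the higher library at 8 of 8 times, by 1.60-fold to 6.77-fold, the widest gap being at 96 h.

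Set against its own 0 h library, ALDH3A1 stood at 11.5% in replicate 1 and 13.4% in replicate 2 at 24 h, and at 3.30% and 2.52% at 36 h. At 48 h these shares were 1.52% and 2.35%, at 72 h 2.21% and 2.56%, and at 96 h 2.79% and 8.73%. The lowest levels were therefore reached by 36 to 72 h in both replicates, and the 96 h library of replicate 2 stood above them. The log2 fold change (SE 0.81) was -0.30, -1.02, -2.99, -5.03, -5.58, -5.28 and -4.27 at 6, 12, 24, 36, 48, 72 and 96 h. ALDH3A1 was called lower at 36 h (limma adjusted p = 0.00789), 48 h (0.00372), 72 h (0.00537) and 96 h (0.0186), and over the whole course by the moderated F test (limma adjusted p = 0.00680; 1.72% of all genes were called). The course call was kept whichever of the 16 libraries was left out.

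The calls at single times were lost without certain single libraries. Leaving a library out left 1 at its time, and the cause of the losses was not tested. Without 0 h replicate 2 the limma adjusted p of ALDH3A1 was 0.151, 0.0787, 0.102 and 0.285 at 36, 48, 72 and 96 h. The adjusted p (limma) was above the threshold as well without replicate 1 of the tested time, at 0.0552 for 36 h, 0.0554 for 48 h, 0.0833 for 72 h and 0.112 for 96 h. It was also lost at 36 h without 36 h replicate 2 (limma adjusted p = 0.0644) and at 96 h without 0 h replicate 1 (0.0518). With TMM scaling the 96 h value was -3.98 (limma adjusted p = 0.0513), and the calls at 36, 48 and 72 h held. With the replicate number as a block, ALDH3A1 was called at 24 h too (limma adjusted p = 0.000920). Leaving out 96 h replicate 2, the higher library, gave -5.59 at 96 h and leaving out 96 h replicate 1 gave -2.94, against -4.27 with both.

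ALDH3A2 encodes the fatty aldehyde dehydrogenase of the endoplasmic reticulum, the enzyme deficient in Sjögren-Larsson syndrome, and lies near ALDH3A1 on the plus strand of chromosome 17 (19648136 to 19677598). It measured 93.3, 43.7, 52.9, 38.4, 39.8, 26.2, 36.4 and 41.6 TPM in replicate 1 at the same 8 times. The replicate 2 libraries measured 123, 71.3, 45.2, 36.8, 30.7, 41.0, 45.4 and 49.6 TPM. Every later library lay below both 0 h libraries, already at 6 h, where 61.8% of all genes did so, and the 2 libraries of 24 h were close together (37.6 ± 1.11 TPM at 24 h, against 108 ± 21.2 TPM at 0 h, SD, n = 2 each).

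The log2 fold change of ALDH3A2 (SE 0.29) was -0.93, -1.12, -1.49, -1.59, -1.68, -1.38 and -1.22 at 6, 12, 24, 36, 48, 72 and 96 h. It was called lower at 24 h (limma adjusted p = 0.0281), 36 h (0.0144), 48 h (0.00823) and 72 h (0.0258), but not at 96 h (0.0547). With the replicate block it was also called at 12 h (limma adjusted p = 0.0397), at 96 h (0.0167) and over the course (0.0177, against 0.0714 without the block). At 24 and 72 h the call was lost whichever of the 4 libraries was left out, with limma adjusted p of 0.0872 to 0.442 at 24 h and 0.0575 to 0.339 at 72 h. At 36 h the call was lost without 0 h replicate 2 (limma adjusted p = 0.246) or 36 h replicate 2 (0.163). At 48 h it was lost without 0 h replicate 2 (limma adjusted p = 0.148) or 48 h replicate 1 (0.101). With TMM scaling ALDH3A2 was called at 24 and 36 h, and measured -1.13 at 48 h (limma adjusted p = 0.0511) and -1.17 at 72 h (0.0519).

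ALDH3B1 encodes a membrane-bound enzyme for aldehydes from lipid peroxidation and lies on the plus strand of chromosome 11 (68008578 to 68029282). Only 0.512% of its 50-base words are shared with its paralogue ALDH3B2. Its replicate 1 libraries measured 53.1, 30.3, 36.4, 18.5, 18.1, 9.38, 12.2 and 13.1 TPM over the 8 times, and its replicate 2 libraries 92.1, 59.0, 40.3, 25.4, 17.1, 21.1, 25.9 and 33.5 TPM. All libraries from 12 h on lay below both at 0 h, where 16.1% (12 h) to 62.3% (48 h) of all genes did so. Replicate 2 was higher at 7 of 8 times, a direction shared with ALDH3A1. The log2 fold change (SE 0.51) was -0.71, -0.85, -1.65, -1.93, -2.23, -1.91 and -1.68 over the same times.

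ALDH3B1 was called lower at 48 h (limma adjusted p = 0.0245) and not at 24 h (0.171), 36 h (0.0698), 72 h (0.0698) or 96 h (0.129). With the replicate block it was called at all of these times (limma adjusted p = 0.000991 to 0.00957) and over the course (0.00499). The 48 h call was lost without 0 h replicate 1 (limma adjusted p = 0.0630), 0 h replicate 2 (0.249) or 48 h replicate 1 (0.228), and with TMM scaling (0.129). At 96 h it was called without 96 h replicate 2 (-2.33, limma adjusted p = 0.0450), the higher of the 2 libraries, and gave -1.04 without 96 h replicate 1.

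**Figure D2:**
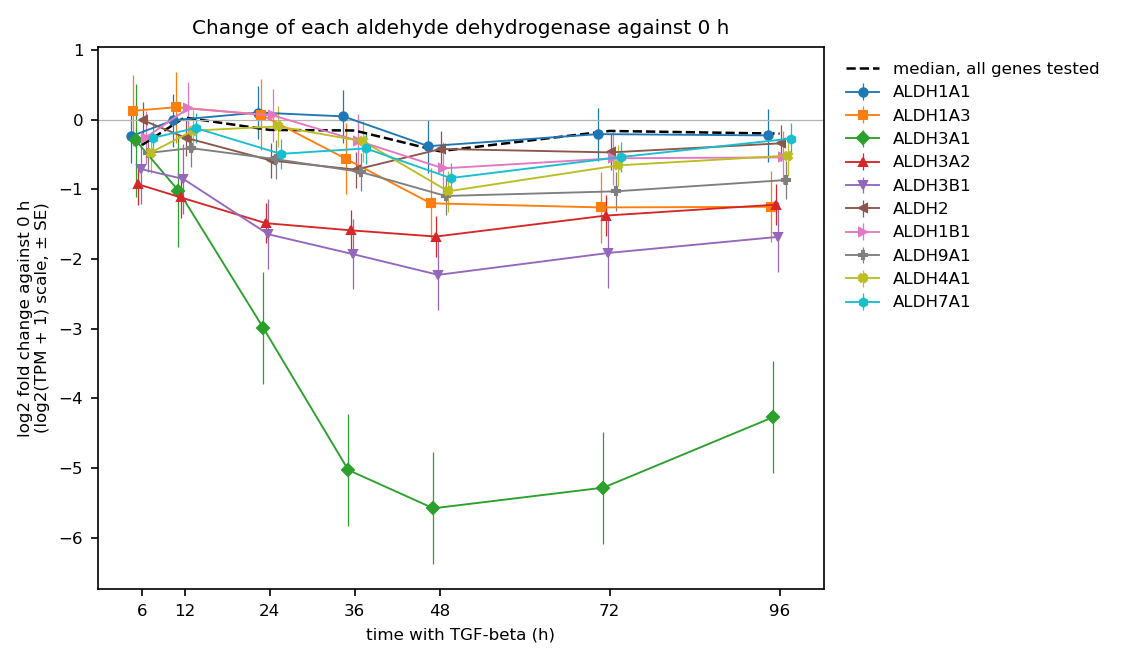
Log2 fold change of each member against 0 h on the log2(TPM + 1) scale (y axis) at 6 to 96 h (x axis; points of one time are moved apart sideways), with the SE from limma as bars and the median of all genes tested as a dashed line. At 96 h ALDH3A1 (-4.27), ALDH3B1 (-1.68) and ALDH3A2 (-1.22) lay below the all-gene median (-0.20), and ALDH1A1 (-0.23) lay close to it. ALDH3A1 lay above the median of its time at 6 h (-0.30), and ALDH1A1 did so at 6 h (-0.24), 24 h (0.10), 36 h (0.04) and 48 h (-0.38). Other members also lay above it at some times, such as ALDH2 at 6 h (-0.01).

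ALDH1A1, a cytosolic retinaldehyde dehydrogenase and the usual source of the activity used to sort stem-like tumour cells, lies on the minus strand of chromosome 9 (72900662 to 73080442) and shares none of its 50-base words with another annotated gene. It measured 4289.8, 3315, 4201, 4067, 3804, 1853, 2775 and 3274 TPM in replicate 1 and 3893, 3609, 3917, 4719, 4670.2, 5302, 4502 and 3717 TPM in replicate 2 at the 8 times. The 48 h libraries were the lowest and the highest of all 16, so the mean at 48 h carried a wide spread (3578 ± 2439 TPM at 48 h, against 4092 ± 280 TPM at 0 h, SD, n = 2 each). The log2 fold change (SE 0.38) was 0.10, -0.38 and -0.23 at 24, 48 and 96 h, and no time was called. With TMM scaling the 96 h value was 0.04. Leaving out 48 h replicate 2 gave a call at 48 h (-1.14, limma adjusted p = 0.0423). ALDH1A1 made up 92.3% to 96.1% of the summed TPM of 19 ALDH genes in the libraries from 24 h on, against 85.4% and 75.8% in the 0 h libraries.

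ALDH1A3, the other retinaldehyde dehydrogenase of the set, lies on the plus strand of chromosome 15 (100877714 to 100916626). It was expressed at a low level: 8.08, 5.61, 10.6, 7.78, 4.92, 2.37, 3.4 and 4.32 TPM in replicate 1 and 12.3, 20.7, 12.3, 14.2, 8.34, 5.77, 3.78 and 3.0 TPM in replicate 2. Both libraries at 48, 72 and 96 h lay below both at 0 h, where 62.3%, 41.5% and 31.0% of all genes did so. Up to 36 h the ranges overlapped. Its log2 fold change was -1.25 at 96 h (SE 0.51, limma adjusted p = 0.293), with no call at any time. With TMM scaling and the replicate block together it was called at 72 h (limma adjusted p = 0.0275), at 96 h (-1.01, 0.0413) and over the course (0.00737). An antisense transcript, RP11-66B24.4, shares 24.1% of the 50-base words of ALDH1A3 and measured 3.73 and 2.46 TPM at 96 h, against 3.26 and 3.63 TPM at 0 h. Strand is not stated for the counting, so reads of this pair cannot be told apart there.

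ALDH2 and ALDH1B1 encode mitochondrial enzymes that oxidise acetaldehyde. ALDH2 (chromosome 12, 111766887 to 111817529, plus strand) measured 32.4, 37.3, 27.2, 21.8, 24.7, 30.3, 29.9 and 24.5 TPM in replicate 1 and 38.4, 32.8, 31.5, 24.6, 17.9, 22.4, 21.1 and 31.1 TPM in replicate 2. ALDH1B1 (chromosome 9, 38392664 to 38398661, plus strand) measured 29.8, 20.4, 36.2, 30.7, 28.7, 15.8, 18.7 and 19.6 TPM in replicate 1 and 19.9, 20.0, 20.6, 21.0, 13.2, 13.5, 14.1 and 13.7 TPM in replicate 2. Neither was called at any time. At 96 h the log2 fold change was -0.34 for ALDH2 (SE 0.26) and -0.54 for ALDH1B1 (SE 0.38). ALDH1B1 was higher in replicate 1 at 8 of 8 times, by 1.02-fold to 2.18-fold, the opposite of ALDH3A1.

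ALDH9A1 oxidises trimethylaminobutyraldehyde in carnitine synthesis and lies on the minus strand of chromosome 1 (165662216 to 165698863). It measured 23.6, 14.2, 18.6, 16.9, 13.8, 8.25, 10.9 and 12.4 TPM in replicate 1 and 26.4, 21.9, 18.5, 16.1, 15.1, 15.0, 12.6 and 14.1 TPM in replicate 2. As deposited, all later libraries lay below both at 0 h, where 16.1% (12 h) to 62.3% (48 h) of all genes did so. With TMM scaling the 6 h libraries of ALDH9A1 did not. The log2 fold change (SE 0.28) was -1.10 at 48 h (limma adjusted p = 0.0356), its single call, -1.03 at 72 h (0.0776) and -0.87 at 96 h. With the replicate block 72 h was called as well (limma adjusted p = 0.0234). TMM scaling and the block together called ALDH9A1 at 72 h (limma adjusted p = 0.0140) and over the course (0.0499). At 48 h TMM scaling gave -0.58 (limma adjusted p = 0.312) and removal of the small RNAs -0.80 (0.129), so that the call was lost under both. The 48 h call was also lost without either 0 h library or without 48 h replicate 1 (limma adjusted p = 0.126 to 0.287).

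ALDH7A1, which acts in lysine degradation, lies on the minus strand of chromosome 5 (126531200 to 126595418) and measured 49.98, 40.4, 47.0, 37.0, 40.8, 23.1, 35.2 and 46.9 TPM in replicate 1. Its replicate 2 libraries measured 50.6, 43.2, 45.2, 34.0, 34.4, 33.1, 33.5 and 36.6 TPM. ALDH4A1, which makes glutamate from proline, lies on the minus strand of chromosome 1 (18871430 to 18902781) and was the lowest member beside ALDH1A3, with 2.46 to 7.93 TPM over the 16 libraries. Its libraries measured 4.57 and 4.81 TPM at 96 h, with 2.46 and 3.60 TPM at 48 h, against 7.93 and 6.43 TPM at 0 h. At 48 h, where the median of all genes was -0.46, ALDH7A1 was called lower (-0.84, SE 0.22, limma adjusted p = 0.0395), and ALDH4A1 was not (-1.03, SE 0.29, 0.0511; 0.0339 with the replicate block). With TMM scaling ALDH7A1 measured -0.30 at 48 h (limma adjusted p = 0.463), and with the small RNAs removed -0.51 (0.103). The ALDH7A1 call was also lost without either 0 h library or without 48 h replicate 1 (limma adjusted p = 0.154 to 0.289). ALDH4A1 shares 37.6% of its 50-base words with an overlapping annotated gene, AL080251.1, which averaged 0.00313 TPM.

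Counted over the 10 members, calls were all towards lower levels. None was called by limma at 6 h (0.0177% of all genes were called lower) or 12 h (0.130%), where 1 member each had an unadjusted p under 0.05. At 24 h 1 member was called (ALDH3A2; background 0.595%), at 36 h 2 (ALDH3A1 and ALDH3A2; 1.33%) and at 48 h 5 (ALDH3A1, ALDH3A2, ALDH3B1, ALDH7A1 and ALDH9A1; 6.80%). At 72 h 2 members were called (ALDH3A1 and ALDH3A2; 1.74%) and at 96 h 1 (ALDH3A1; 1.26%). The replicate block gave 1 call at 12 h (background 0.684%), 3 at 24 h (1.92%), 4 at 72 h (4.22%), 3 at 96 h (3.31%) and 3 over the course (6.13%). At 48 h, the time with the most calls, 48 h replicate 1 had the highest small RNA share and 48 h replicate 2 an excess of genes at 0. Mitochondrial mRNAs made up 0.363% and 0.491% of the TPM in the 48 h libraries, the first being the lowest share of all 16, against 0.910% and 0.853% at 0 h. Their list had a median log2 fold change of -1.53 at 48 h, with none of 13 called by limma, where 6.80% of all genes were called lower. At an unadjusted p under 0.05 there were 6, and the replicate block called 10 lower. The shares of all genes for these 2 counts were not set beside them, so they are not read as a result about mitochondrial genes. The part of these library differences in the 48 h calls was not tested. The 48 h count was 1 with TMM scaling (background 2.42%). It fell without 48 h replicate 1 or without either 0 h library, which left 1 library at that time. The share of all genes called in those fits was not set beside it, so a loss of calls over all genes cannot be told apart.

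The median log2 fold change of the 10 members was -0.53 at 24 h, -1.06 at 48 h and -0.71 at 96 h, beside -0.15, -0.46 and -0.20 for all genes tested. With TMM scaling the members' median was -0.44 at 96 h, with ALDH1A1 alone above 0. At 6 h the direction depended on the scaling: 9 of 10 members were below 0 as deposited and 7 of 10 above 0 with TMM scaling. Both libraries of 96 h lay below both of 0 h in 10 of 10 members, beside 31.0% of all genes, and with TMM scaling in 5 of 10, beside 20.4% of all genes. Between 96 h and 24 h no member was called by limma (background 0.0118% in either direction), and 1 had an unadjusted p under 0.05, ALDH1A3. ALDH3A1 measured 10.4 and 70.4 TPM at 96 h, against 42.9 and 108 TPM at 24 h, a log2 difference of -1.28 that was 0.05 without 96 h replicate 1 and -2.60 without 96 h replicate 2.

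The order of levels within the family changed with time. TPM are per length, so members can be set side by side within a library. ALDH3A1 ranked second of the 10 in both libraries of 0, 6, 12 and 24 h, and in 96 h replicate 2. It ranked 8 of 10 in 96 h replicate 1. Per 100 TPM of ALDH1A1 in the same library, a ratio that no scaling of the library alters, ALDH3A1 stood at 8.70, 10.6, 4.78, 1.05, 0.324, 0.305, 0.297 and 0.318 in replicate 1 over the 8 times. In replicate 2 the ratio was 20.7, 15.6, 9.28, 2.29, 0.435, 0.357, 0.458 and 1.89. No library from 24 h on reached the ratio of either 0 h library. At 36, 48 and 72 h it ranked 8 of 10 in replicate 1, and 4, 6 and 6 in replicate 2. ALDH1A3 and ALDH4A1 were last in every library but 6 h replicate 2, where ALDH1B1 stood between them.

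**Figure D3:**
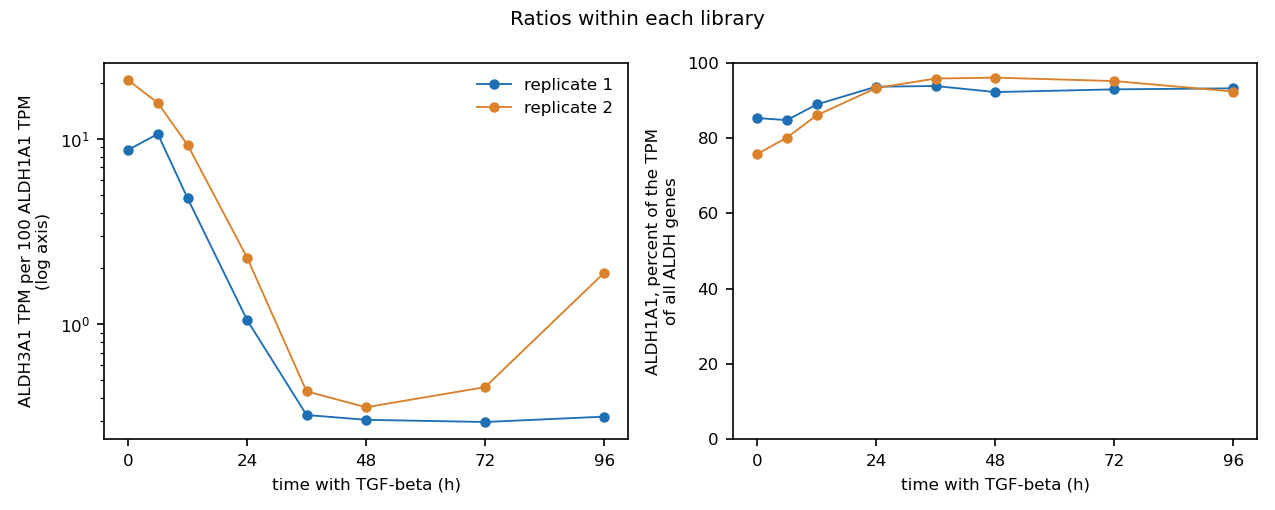
Left, ALDH3A1 TPM per 100 TPM of ALDH1A1 on a log axis; right, ALDH1A1 as a percent of the TPM of all 19 ALDH genes from 0 to 100; both against hours with TGF-beta, with a line for each replicate number. The ratio was 0.318 in replicate 1 and 1.89 in replicate 2 at 96 h, against 8.70 and 20.7 at 0 h, and the ALDH1A1 share stayed at 92.3% to 96.1% from 24 h on.

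Genes with the profile most like a member were found by the root mean square difference of log2(TPM + 1), centred on each gene's mean, over 16 libraries and 6580 genes of at least 10 TPM. For ALDH3A1 these were GPX2, a glutathione peroxidase (0.55), AGR2, a secretory protein disulfide isomerase (0.65), and AKR1C2, an aldo-keto reductase (0.97). GPX2 averaged 8.56 TPM at 96 h, against 148 TPM at 0 h, and AGR2 3.10 TPM at 96 h, against 116 TPM at 0 h. The nearest profiles to ALDH1A1 were PVRL3 (0.15), SDCBP (0.18) and CETN2 (0.18). ALDH1A1 itself had a root mean square deviation from its own mean of 0.35 over the 16 libraries. Those nearest to ALDH1A3 were ACAT1, RP11-396K3.1 and CLPTM1L (0.33 each). These are descriptions of likeness over samples that share time and library.

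Other genes of the family and of linked pathways were read beside the members. Of 9 other ALDH genes 6 were tested and none was called at 24 or 96 h by limma, with 1 at an unadjusted p under 0.05 at each time. ALDH3B2, the paralogue of ALDH3B1, was called lower at 36, 48 and 72 h. With TMM scaling its 72 h call was lost, and the calls at 36 and 72 h were lost whichever of the 4 libraries was left out. At 48 h the call was lost without 0 h replicate 2 or 48 h replicate 1. ALDH18A1, which makes proline from glutamate and was the highest of them, measured 21.9 and 25.7 TPM at 96 h, against 29.6 and 27.9 TPM at 0 h. ALDH3B2 measured 1.97 and 2.98 TPM at 96 h, against 6.06 and 9.48 TPM at 0 h (-1.32, limma adjusted p = 0.0921; 0.0405 with the replicate block). Of 7 alcohol dehydrogenases, which make aldehydes from alcohols, ADH5 alone passed the filter and measured 38.8 and 46.2 TPM at 96 h, against 47.8 and 44.7 TPM at 0 h.

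Retinoid genes supply and use the substrate of ALDH1A1 and ALDH1A3. Of 17 read here, 14 were tested, with a list median of -0.13 at 24 h and -0.33 at 96 h. At 24 h limma called 1 lower. RDH10, a retinol dehydrogenase that makes retinaldehyde, fell to 3.74 and 3.33 TPM at 24 h, against 11.02 and 22.3 TPM at 0 h (-1.88, limma adjusted p = 0.0443), a call lost whichever of the 4 libraries was left out. At 96 h none of the 14 was called by limma, as deposited or with TMM scaling, and 3 were lower at an unadjusted p under 0.05. With the block, DHRS3 and RBP4 were called lower at 96 h. RDH11, a retinal reductase and the highest of the list, measured 44.9 and 41.0 TPM at 96 h, against 50.5 and 52.2 TPM at 0 h.

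Genes of the NRF2 pathway, the response to oxidants and electrophiles that is known to regulate ALDH3A1 and many reductases, were all 17 tested. At 24 h 5 and at 96 h 9 were called lower and none higher, where 0.595% and 1.26% of all genes were called lower. The list median was -1.35 at 96 h beside -0.20 for all genes. TMM scaling gave 4 and 6 calls instead (background 1.09% at 96 h, with that at 24 h not set beside it), and the replicate block 10 and 13 (1.92% and 3.31%). TXNRD1, thioredoxin reductase, measured 176 and 195 TPM at 96 h, against 657 and 692 TPM at 0 h, and GCLC, a subunit of the enzyme for glutathione synthesis, 23.9 and 14.2 TPM at 96 h, against 90.0 and 90.7 TPM at 0 h. NQO1, the highest of the list, fell to 405 and 516 TPM at 96 h, against 1196 and 1144 TPM at 0 h (-1.35, limma adjusted p = 0.00944), and NFE2L2, which encodes NRF2, measured 31.5 and 16.2 TPM at 96 h, against 36.3 and 42.2 TPM at 0 h, with no call. The counts at 24 and 96 h fell whichever library of the compared times was left out, which left 1 library at that time. The share of all genes called in those fits was not set beside them, so a loss of calls over all genes cannot be told apart.

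Other enzymes of carbonyl metabolism, mostly aldo-keto reductases that reduce aldehydes and ketones, had 14 of 15 tested. At 24 h 1 was called lower (AKR1B10; background 0.595%) and at 96 h 5 (AKR1B10, AKR1C1, AKR1C2, AKR1C3 and PTGR1; 1.26%). The block gave 7 and 7 (background 1.92% and 3.31%) and TMM scaling 0 and 1 (1.09% at 96 h, with the share at 24 h not set beside it). AKR1B10 measured 113 and 332 TPM at 96 h, against 1439.6 and 1613 TPM at 0 h (-2.97, limma adjusted p = 0.00826), and AKR1C2, the highest of the list, 73.9 and 349 TPM at 96 h, against 1509.9 and 1629 TPM at 0 h. In these genes, as in ALDH3A1, the 96 h library of replicate 2 was the higher of the pair. The 96 h count fell without either 0 h library or without 96 h replicate 1, and stayed the same without 96 h replicate 2. The 24 h call was lost whichever of the 4 libraries was left out. The share of all genes called in those fits was not set beside these counts. No test of a link between these genes and ALDH3A1 was made.

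Of the aryl hydrocarbon receptor pathway, known to induce ALDH3A1 in rodent liver, 5 of 6 genes were tested, and none was called at 24 or 96 h by limma as deposited, with 4 at 24 h and 1 at 96 h at an unadjusted p under 0.05. At 24 h TMM scaling gave 1 call of a higher level and the block 2 of a lower level, AHR and CYP1B1. CYP1B1, a target of the receptor, measured 2.20 and 5.53 TPM at 96 h, against 11.4 and 26.6 TPM at 0 h (-2.01, limma adjusted p = 0.113; 0.00187 with the replicate block), and TIPARP, the highest of the list, 25.4 and 18.9 TPM at 96 h, against 16.3 and 16.1 TPM at 0 h. Of 11 genes for steps next to members, 9 were tested and 1 was called lower at 24 and 96 h. That gene, ACSS1, which activates the acetate that ALDH2 and ALDH1B1 form, measured 0.92 and 1.25 TPM at 96 h, against 4.83 and 6.73 TPM at 0 h (-1.69, limma adjusted p = 0.00744), a call lost without 0 h replicate 2 (0.146) or 96 h replicate 1 (0.0609); its 24 h call was lost whichever of the 4 libraries was left out, and with the block PRODH of the list was also called lower at 24 h. PYCR1, a proline-making enzyme and the highest of this list, measured 48.4 and 21.7 TPM at 96 h, against 40.3 and 29.2 TPM at 0 h.

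Epithelial and mesenchymal state markers were read beside the ALDH3 genes. Of 6 epithelial genes, 5 were tested and 4 were called lower at 96 h by limma (background 1.26%). With TMM scaling 0 were called (background 1.09%). The count as deposited was not kept when single libraries of 0 or 96 h were left out. Their summed level was 1699.6 to 1822 TPM at 96 h, against 3729.96 to 4778 TPM at 0 h. None of the 6 was at 0 in every library. The E-cadherin gene CDH1 measured 0.44 and 3.24 TPM at 96 h, against 14.5 and 27.6 TPM at 0 h, and was higher in replicate 2. Of 5 mesenchymal state genes, all 5 were tested and had a higher mean log2 level at 96 h, with a median of 1.75. By limma 1 of them was called higher, a count given without the share of all genes called higher. That gene, FN1, which encodes fibronectin, measured 1831 and 728 TPM at 96 h, against 135 and 83.3 TPM at 0 h (3.43, limma adjusted p = 0.0108), a call lost without 0 h replicate 2 or 96 h replicate 1. The summed level of the 5 was 1495 to 3647 TPM at 96 h, against 655 to 869 TPM at 0 h. The part of these markers in the values of ALDH3A1, ALDH3A2 and ALDH3B1 was not tested.

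**Figure D4:**
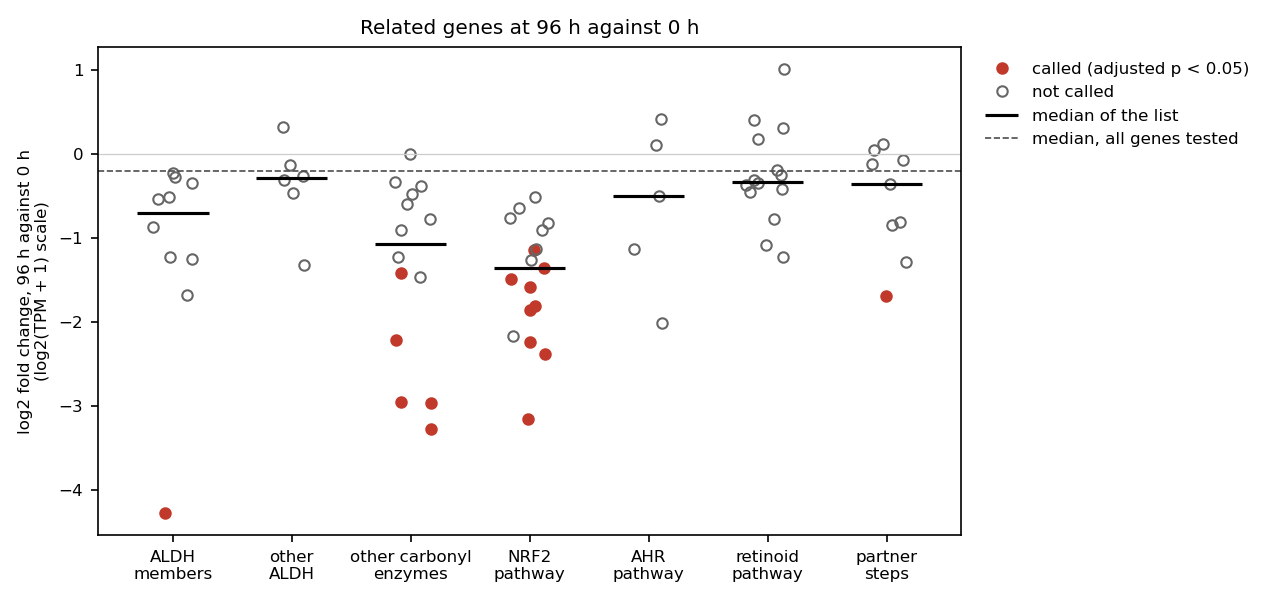
Log2 fold change at 96 h against 0 h on the log2(TPM + 1) scale (y axis) of each gene tested in the members and 6 lists of related enzymes and pathways (x axis; marker lists are not drawn); filled points were called by limma at an adjusted p below 0.05, bars are list medians and the dashed line is the median of all genes tested (-0.20). ALDH3A1 (-4.27) lay below every gene of the other lists drawn, and all filled points drawn lay below 0.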

How the data were processed

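Per the labels' protocols, RNA was isolated with Trizol and the 16 libraries were made with the Illumina TruSeq RNA kit. The values used were the TPM deposited by the authors, a length-corrected share of transcripts, one table holding replicate 1 and the other replicate 2. Per the submitters' processing notes Bowtie and RSEM were used, with no version given. The sources used here do not give the genome build or annotation.

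Columns were mapped to libraries by time and replicate number. The filter kept 16967 genes that had 1 TPM or more in 2 or more libraries, and values entered as log2(TPM + 1). Differences were fitted with limma 3.58.1 in R 4.3.3 (1 mean per time, mean trend, two-sided, Benjamini-Hochberg over all genes kept) after tests on simulated data; python 3.11.15, pandas 2.3.3 and matplotlib 3.10.9 made the other values and plots. Alternatives were TMM scaling computed on the TPM, the replicate number as a block, both together, a pseudocount of 0.1, no filter, removal of 6 small RNAs and leaving out libraries. Deviations from the time means went together between libraries of one number in 28 of 28 pairs of times (correlations over 0.1, lowest 0.128, median 0.438). With TMM scaling they did so in 27 of 28 pairs (lowest 0.0799). The main fit left this pairing out, and the replicate block fitted it as an alternative. The SE of ALDH3A1 was 0.81 in the main fit and 0.37 with the block, and that of ALDH4A1 was 0.29 in both.

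The members and lists were chosen with earlier results of these data known. Named were all 10 members, the 3 nearest profiles to ALDH3A1, ALDH1A1 and ALDH1A3, and, in each list, genes called at 24 or 96 h or the highest expressed; others were named after their values were seen. A gene of the retinoid list is not reported here, and the counts and median of that list leave it out. Positions and shared 50-base words are from GENCODE v29 (GRCh38) and matched by Ensembl identifier; promoters are from RefSeq (GRCh38.p14).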

Additional observations from a re-analysis of the deposited data

How the results depend on the processing

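Numbers of members called are counts of 10, all lower, with the share of all genes called lower (over the course, called) in brackets. TMM scaling gave 1 at 48 h (2.42%), 1 at 72 h (1.59%) and 0 at 96 h (1.09%). The replicate block gave 1 (0.684%), 3 (1.92%), 4 (4.22%) and 3 (3.31%) at 12, 24, 72 and 96 h and 3 over the course (6.13%), and moved no other count by over 1.5 times. With TMM scaling and the replicate block together, counts were 1 (1.51%), 3 (2.37%), 3 (6.45%), 5 (4.93%) and 4 (3.54%) at 12, 24, 48, 72 and 96 h and 5 over the course (11.5%). No filter on low values, which tests more genes, gave 0 (0.344%), 3 (2.14%), 1 (0.769%) and 0 (0.553%) at 24, 48, 72 and 96 h, and removing the small RNAs gave 2 at 48 h (2.84%). Leaving out 36 h replicate 2 and both 48 h libraries, chosen after seeing the data, gave 0 at 36 h (0.0240%) and could give no value for 48 h. Leaving out a single library left 1 at its time. The counts at 6 and 12 h, for 96 h against 24 h and over the course then stayed the same, and those at 24, 36, 48, 72 and 96 h moved. The share of all genes called in these fits was not set beside the counts, so the moves are not read as results about the members. Of the members' fold changes at 24 h, 96 h and 96 h against 24 h, 294 kept direction and side of the threshold, 10 lost and 10 gained a call, and 16 changed sign. Signs changed for ALDH4A1 at 24 h (0.0462), ALDH1A1 at 96 h (0.0448) and ALDH3B1 for 96 h against 24 h (0.0718), each with TMM scaling with or without the block, and for ALDH3B1 with small RNAs removed (0.0278). Without single libraries the ranges that crossed 0 were at 24 h -0.0069 to 0.21 (ALDH1A1), -0.32 to 0.46 (ALDH1A3), -0.22 to 0.33 (ALDH1B1) and -0.23 to 0.0335 (ALDH4A1), and for 96 h against 24 h -2.60 to 0.0457 (ALDH3A1) and -0.68 to 0.61 (ALDH3B1). Some of these settings had fewer libraries or tested more genes, and the cause of the changes was not tested. A lone library left at a time was assumed to vary like the others. Depth is unknown, so how many reads stand behind low members such as ALDH4A1 and ALDH1A3 is unknown too. Each member's SE used a spread pooled over all times, with 2 libraries behind each mean.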
